A study of Homo sapiens with 4 samples.

Results

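The spliced host long non-coding RNAs of small nucleolar RNAs (snoRNAs) were examined in MOLM-13 cells, a human acute myeloid leukaemia line with a KMT2A-MLLT3 fusion. Members were taken by gene symbol alone, as SNHG followed by a number, or as GAS5, ZFAS1, EPB41L4A-AS1 or DANCR. This gave 28 of the 27800 symbols in the table. Of these, 24 averaged 1 TPM or more across the libraries and were tested, and the other 4 (SNHG18, SNHG22, SNHG27 and SNHG28) were at or near 0. Cells had received lentivirus with CRISPR-Cas9 and a guide against the histone acetyltransferase gene KAT6A (sgKAT6A, 2 libraries) or with the vector labelled EV (2 libraries). The labels name CRISPR-Cas9 lentivirus for both groups. The sources used here do not give the guide sequence, the content of EV, the harvest time or whether cells were cloned. Nothing ties the replicates of a group to separate cultures, so the p-values reflect library-to-library spread that may be technical. In bulk RNA, fewer cells with a transcript and less of it per cell cannot be told apart.

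A snoRNA host gene is transcribed by RNA polymerase II and spliced. Its introns release snoRNAs that guide chemical modification of ribosomal RNA, box C/D snoRNAs directing ribose methylation and box H/ACA snoRNAs directing pseudouridylation. Related guides in Cajal bodies act on spliceosomal RNAs. Several hosts are known to start with a terminal oligopyrimidine (TOP) tract like messenger RNAs of ribosomal proteins, and their spliced exons are removed by nonsense-mediated decay. The host level measured in RNA-seq is that of the spliced exons and so depends on both synthesis and decay.

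Promoter stretches of 8 hosts are shown because they span hosts with lower, higher and similar values and show start sites with and without a pyrimidine tract or TATAA. Each runs from 45 bases before the start annotated in RefSeq to 25 bases from it, on the gene's strand, in GRCh38.p14. Capitals mark a pyrimidine tract (a C followed by at least 4 bases that are each C or T) at or within 10 bases of the start, and TATAA where it lies 40 to 20 bases before it. SNHG1 had neither and has no capitals. The positions are chr4:52712349-52712418 on the plus strand for DANCR, chr17:76557719-76557788 on plus for SNHG16, chr7:22854195-22854264 on plus for SNHG26 and chr11:62855861-62855930 on minus for SNHG1. They are chr16:2155334-2155403 on minus for SNHG19, chr1:28581849-28581918 on minus for SNHG12, chr20:49278597-49278666 on plus for ZFAS1 and chr6:85678709-85678778 on minus for SNHG5.
DANCR: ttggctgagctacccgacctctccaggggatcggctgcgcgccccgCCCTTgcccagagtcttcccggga
SNHG16: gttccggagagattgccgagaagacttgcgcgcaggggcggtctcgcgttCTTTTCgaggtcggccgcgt
SNHG26: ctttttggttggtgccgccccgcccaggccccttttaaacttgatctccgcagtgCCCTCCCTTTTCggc
SNHG1: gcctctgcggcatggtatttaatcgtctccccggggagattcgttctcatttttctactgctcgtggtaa
SNHG19: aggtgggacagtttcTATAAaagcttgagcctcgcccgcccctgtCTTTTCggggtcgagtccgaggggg
SNHG12: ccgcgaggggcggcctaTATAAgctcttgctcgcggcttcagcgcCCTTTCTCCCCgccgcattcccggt
ZFAS1: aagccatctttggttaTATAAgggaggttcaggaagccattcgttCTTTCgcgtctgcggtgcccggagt
SNHG5: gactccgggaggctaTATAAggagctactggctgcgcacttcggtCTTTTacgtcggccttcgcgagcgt

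Promoters of 24 of the 28 hosts were in the RefSeq table. A pyrimidine tract beginning exactly at the annotated start was found in 6 of them (SNHG4, SNHG5, SNHG12, SNHG18, SNHG19 and ZFAS1), which is 25%, against 4.07% of all 35116 promoters. When the tract could begin up to 10 bases to either side, 14 of 24 had one, against 33.5% of all promoters. GAS5, the best studied host, had no match in either search at its annotated start. TATAA in the window before the start was found in 6 of 24 (SNHG5, SNHG7, SNHG8, SNHG12, SNHG19 and ZFAS1), against 3.77% of all promoters. CACGTG, the palindromic E-box bound by MYC, was found in the 300-base window of 1 host (SNHG7), against 7.26% of all promoters. CACGTG reads the same on both strands, while the tract and TATAA were searched on the gene's strand only. The tract and TATAA can lie in the same promoter, as in SNHG12, SNHG19, ZFAS1 and SNHG5. These are matches of letters and say nothing about use of the sites. The 5 tested hosts with the tract at the start had a median log2 difference of 0.036 between sgKAT6A and EV, and the 15 without it -0.31, given as a description. With the tract within 10 bases of the start the medians were closer, at -0.22 for 13 hosts with it and -0.31 for 7 without it.

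KAT6A RNA had 12.2 and 10.8 TPM in the sgKAT6A libraries, against 16.2 and 16.7 TPM in the EV libraries (log2 difference -0.48 ± 0.13 SE, adjusted p = 0.784 by limma). Of 12603 genes tested, 0 had an adjusted p under 0.05 and 459 an unadjusted p under 0.05, or 3.64%. TPM keeps no read depth, so the depth is unknown and no counting interval was computed. RNA18SN5, an 18S ribosomal RNA symbol, had 340 TPM in sgKAT6A replicate 2, and 10401 to 13751 TPM elsewhere. Myeloid markers of the line were present, with LYZ at 7060 to 10975 TPM, CD33 at 99.2 to 115 TPM and SPI1 at 334 to 519 TPM. KIT stayed under 1 TPM. Of the markers of other cells, MS4A1, CR2 and CD2 were listed at 0 in every library, while HBB ran from 38.6 to 192 TPM and PECAM1 from 32.8 to 77.9 TPM with overlap of the groups. The 9 monocyte maturation markers summed to 971 and 2194 TPM in sgKAT6A replicates 1 and 2 and to 416 and 1395 TPM in EV replicates 1 and 2, and none was at 0 in every library. All 8 tested markers of that list were higher in sgKAT6A within both replicate numbers, with the groups overlapping for each, and their part in the host results was not tested.

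The hosts together made up a similar share of each library. Their TPM summed to 4990 and 4505 in sgKAT6A replicates 1 and 2 and to 4984 and 4503 in EV replicates 1 and 2, or 0.45% to 0.499% of each library. The group difference was 3.45 TPM (two-sided exact permutation p = 0.667, where 2 against 2 libraries allow no p below 0.33). With all libraries kept, it was 95.7 TPM under median-of-ratios scaling and 239 TPM with short RNA and ribosomal RNA symbols removed. SNHG6, the host of SNORD87, was the most abundant and took 40.9% and 47.6% of the host total in sgKAT6A and 37.9% and 39.4% in EV. Without SNHG6 the sums were 2947 and 2360 TPM in sgKAT6A cells, compared with 3094 and 2729 TPM in EV cells, and the groups overlapped. Without EV replicate 2 the difference of all hosts was -237 TPM, and without sgKAT6A replicate 1 it was -239 TPM.

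Levels of single hosts, in TPM, which divides by transcript length, spanned 3 classes. SNHG6, GAS5, SNHG8, SNHG5, ZFAS1, SNHG19, DANCR and SNHG7 averaged at least 100 TPM over the 4 libraries. Another 11 averaged 10 to 100 TPM, and 5 averaged 1 to 10 TPM (SNHG10, SNHG21, SNHG11, SNHG20 and SNHG14). Of the 23 neighbouring pairs in the order of mean level, 17 had overlapping values and 6 did not. The separate pairs were SNHG6 above GAS5, GAS5 above SNHG8, SNHG5 above ZFAS1, ZFAS1 above SNHG19, SNHG19 above DANCR, and SNHG20 above SNHG14. The 5 most abundant hosts held 80.5% and 83.9% of the host total in sgKAT6A and 78.3% and 79.1% in EV. SNHG18 and SNHG22 were listed at 0 in every library, SNHG27 reached 0.121 TPM in EV replicate 1, and SNHG28 reached 0.159 TPM in sgKAT6A replicate 2 and 0.0828 TPM in EV replicate 2.

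**Figure D1:**
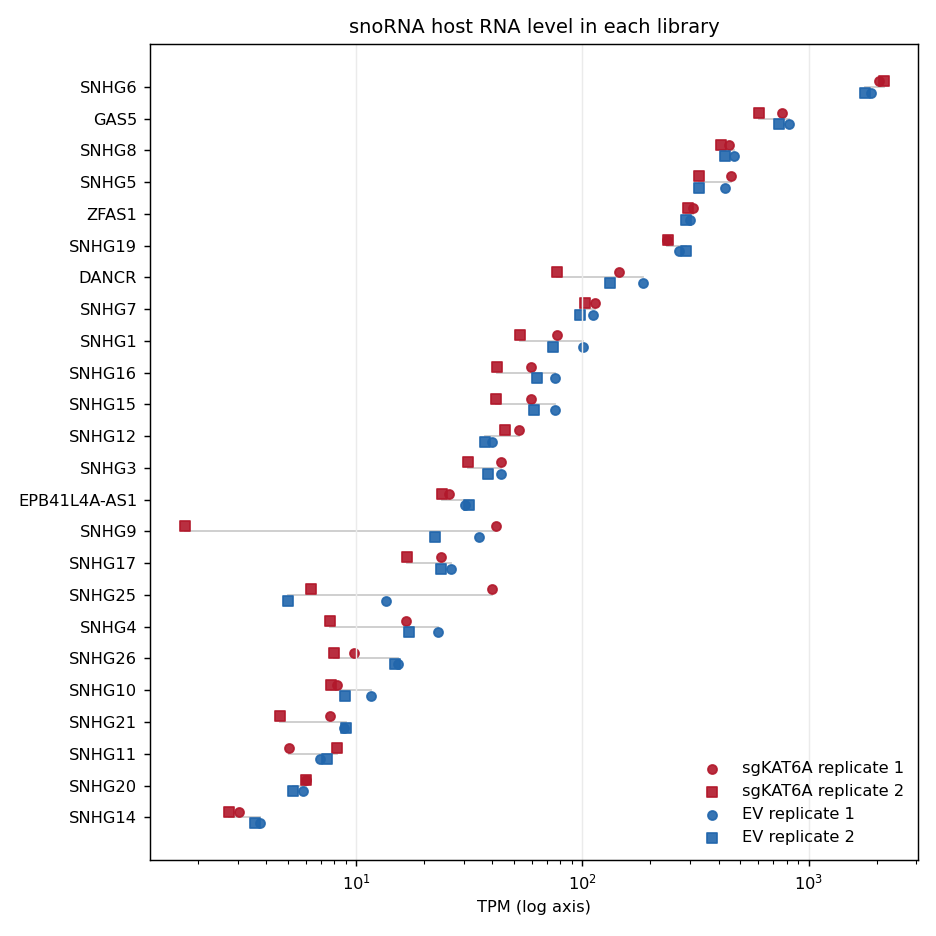
TPM on a log axis of the 24 tested hosts in each library, sgKAT6A in red and EV in blue, circles for replicate 1 and squares for replicate 2, with a grey line over the range. Points of most hosts lie close together, from SNHG6 (mean 1963) down to SNHG14 (mean 3.28), while SNHG9 and SNHG25 spread widely.

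Between sgKAT6A and EV, 17 of the 24 tested hosts had a negative and 7 a positive fitted log2 difference. Over all 12603 genes tested, 6624 were negative and 5979 positive. The difference exceeded the larger replicate gap for 6 of the 24. The share of all genes that did so was not computed, so this count has no background to be read against. None passed an adjusted p of 0.05 by limma, as for all genes (0%), and 1 host, SNHG26, had an unadjusted p under 0.05. It was lower in sgKAT6A, as were 1.98% of all genes at that p, and 0 hosts were higher at it, beside 1.67% of all genes. The median log2(TPM + 1) difference of the tested hosts was -0.24, beside -0.016 for all genes tested. Both sgKAT6A libraries lay below both EV libraries for 9 hosts (23.2% of all genes did so) and above them for 3 (14.4% of all genes). The other 12 overlapped. Within both replicate numbers, 14 hosts were lower in sgKAT6A (36.2% of all genes) and 6 were higher (32% of all genes). Short RNA and ribosomal RNA symbols held 20.5% and 20.1% of TPM in sgKAT6A and 17.3% and 16.7% in EV. With these symbols removed and the rest rescaled, the counts without overlap became 7 lower and 4 higher, beside 15.7% and 20.1% of all genes. Under all 4 scalings tried, 7 of the 9 hosts stayed lower without overlap, SNHG4 and SNHG15 being the exceptions, and of the 3 higher ones SNHG12 alone stayed higher without overlap, SNHG6 and SNHG20 overlapping after quantile normalization. Without sgKAT6A replicate 1, 17 hosts were lower and 4 higher, beside 44.2% and 36.9% of all genes. Without EV replicate 2, 14 were lower and 3 higher, beside 35.7% and 39.4% of all genes. Without sgKAT6A replicate 2 the median host difference was -0.084, and 10 hosts were lower and 9 higher, beside 33.3% and 27.8% of all genes. Without EV replicate 1, 9 were lower and 6 higher, beside 37.6% and 19.7% of all genes.

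**Figure D2:**
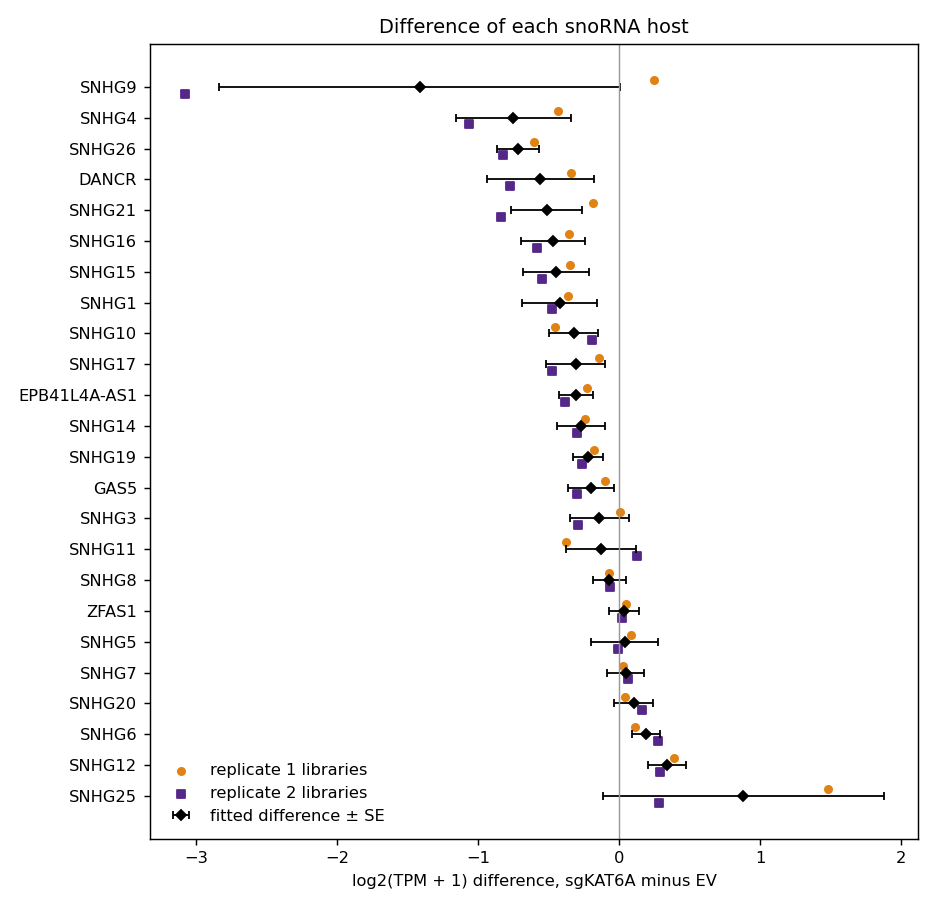
Log2(TPM + 1) difference, sgKAT6A minus EV, of each tested host: diamonds give the fitted difference with its SE (n = 2 per group), orange circles the pair of replicate 1 libraries and purple squares the pair of replicate 2 libraries. Most diamonds lie left of 0, SNHG26 (-0.71) stands clear of its SE, and SNHG9 and SNHG25 have the widest bars.

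Among hosts of box C/D snoRNAs, SNHG26, which holds SNORD93, had the smallest p. SNHG26 was at 9.73 and 7.97 TPM in sgKAT6A replicates 1 and 2 and at 15.3 and 14.9 TPM in EV replicates 1 and 2. Both sgKAT6A values were under both EV values and the EV libraries nearly coincided. The ratio of means was 0.586 and the log2 difference -0.71 ± 0.15 (SE, 95% interval -1.13 to -0.30), with an unadjusted p of 0.00875 and an adjusted p of 0.784 by limma. It was the 1 host whose interval left out 0, at a level near 10 TPM.

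SNHG16, which holds SNORD1A, SNORD1B and SNORD1C, was at 59.3 and 41.8 TPM in sgKAT6A cells, compared with 76.0 and 63.1 TPM in EV cells. The groups did not overlap, and the log2 difference was -0.47 ± 0.23, which became -0.71 without sgKAT6A replicate 1 and -0.22 without sgKAT6A replicate 2. SNHG19, a short host of SNORD60 with 1 annotated transcript of 342 bases, was at 236 and 240 TPM in sgKAT6A cells, compared with 268 and 288 TPM in EV cells. Its log2 difference of -0.22 ± 0.11 was larger than the gap between replicates of either group. SNHG1, the host of SNORD22 and SNORD25 to SNORD31, was at 77.6 and 53.0 TPM in sgKAT6A cells, compared with 100 and 74.2 TPM in EV cells. There sgKAT6A replicate 1 was above EV replicate 2, so the groups overlapped, and the log2 difference was -0.42 ± 0.27 (-0.69 without sgKAT6A replicate 1, -0.15 without sgKAT6A replicate 2).

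SNHG6 stood higher at 2043 and 2145 TPM in sgKAT6A cells, compared with 1890 and 1775 TPM in EV cells, without overlap. Its log2 difference of 0.19 ± 0.10 exceeded the replicate gap of both groups, although the groups overlapped after quantile normalization. ZFAS1, which holds SNORD12, SNORD12B and SNORD12C, was almost level at 308 and 293 TPM in sgKAT6A cells, compared with 298 and 289 TPM in EV cells (difference 0.036 ± 0.10, 95% interval -0.25 to 0.33). Its groups overlapped as deposited and under median-of-ratios scaling, but were higher in sgKAT6A without overlap under the other 2 scalings. SNHG5, host of SNORD50A and SNORD50B, followed the replicate number, at 455 and 326 TPM in sgKAT6A replicates 1 and 2 and 429 and 328 TPM in EV replicates 1 and 2. SNHG25, host of SNORD104 whose GENCODE 29 gene span of 507 bases is the shortest among the 27 hosts annotated there, was at 39.7 and 6.31 TPM in sgKAT6A cells, compared with 13.6 and 5.02 TPM in EV cells. Replicates of SNHG25 differed more than the groups did, and its log2 difference of 0.88 ± 0.99 became -0.36 without sgKAT6A replicate 1.

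GAS5 and SNHG12 hold snoRNAs of both kinds. GAS5 (growth arrest specific 5), known for accumulating when growth stops and translation is blocked, was at 763 and 604 TPM in sgKAT6A cells, compared with 818 and 743 TPM in EV cells. Its sgKAT6A replicate 1 lay between the EV libraries, and the log2 difference was -0.20 ± 0.16 (95% interval -0.64 to 0.25). It was -0.37 without sgKAT6A replicate 1 and -0.031 without sgKAT6A replicate 2. SNHG12, which holds SNORD99, SNORA16A, SNORA44 and SNORA61, was at 52.5 and 45.7 TPM in sgKAT6A cells, compared with 39.9 and 37.2 TPM in EV cells. The sgKAT6A libraries were higher without overlap, with a log2 difference of 0.34 ± 0.13 (unadjusted p = 0.0651, adjusted p = 0.784 by limma). This difference was larger than either replicate gap.

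The 10 tested hosts of box H/ACA snoRNAs alone had a median log2 difference of -0.31, with 3 lower without overlap and 0 higher. For the 8 hosts of box C/D snoRNAs alone the median was -0.092, with 3 lower and 1 higher. Over all genes 23.2% were lower and 14.4% higher without overlap. DANCR, host of SNORA26 and known from epidermal progenitors as a restraint on differentiation, was at 146 and 76.9 TPM in sgKAT6A cells, compared with 185 and 132 TPM in EV cells. Its groups overlapped, because sgKAT6A replicate 1 exceeded EV replicate 2, and the difference was -0.56 ± 0.38. Leaving out sgKAT6A replicate 1 gave -1.01, and leaving out sgKAT6A replicate 2 gave -0.10. SNHG15, host of SNORA9, was at 59.2 and 41.6 TPM in sgKAT6A cells, compared with 75.6 and 61.3 TPM in EV cells, a difference of -0.45 ± 0.23 (-0.70 without sgKAT6A replicate 1, -0.20 without sgKAT6A replicate 2). Its groups did not overlap in the values as deposited and did under the other 3 scalings.

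EPB41L4A-AS1, host of SNORA13, was at 25.8 and 24.0 TPM in sgKAT6A cells, compared with 30.4 and 31.7 TPM in EV cells. These groups stood apart by more than either replicate gap, with a difference of -0.31 ± 0.12 (unadjusted p = 0.0612). SNHG4, host of SNORA74A and SNORA74D, was at 16.7 and 7.65 TPM in sgKAT6A cells, compared with 22.9 and 17.1 TPM in EV cells. That margin between the nearest libraries was small, the difference was -0.75 ± 0.41, and the groups overlapped under the other 3 scalings. The difference was -1.26 without sgKAT6A replicate 1 and -0.23 without sgKAT6A replicate 2. SNHG9, host of SNORA78, was at 41.6 and 1.75 TPM in sgKAT6A cells, compared with 34.8 and 22.2 TPM in EV cells. The low value belonged to sgKAT6A replicate 2, the library that was also low in RNA18SN5, and without it the difference of -1.41 became 0.56.

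SNHG8, SNHG7, SNHG3, SNHG17 and SNHG11 overlapped between the groups, with differences from -0.31 for SNHG17 to 0.046 for SNHG7. SNHG8, host of SNORA24, was at 446 and 409 TPM in sgKAT6A cells, compared with 470 and 428 TPM in EV cells, a difference of -0.070 with a 95% interval of -0.40 to 0.26. SNHG3, which holds the U17 snoRNAs SNORA73A and SNORA73B, was at 43.7 and 31.2 TPM in sgKAT6A cells, compared with 43.5 and 38.4 TPM in EV cells. Its sign turned to 0.095 without sgKAT6A replicate 2.

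Hosts of Cajal body RNAs were at low levels. SNHG10, host of SCARNA13, was at 8.22 and 7.72 TPM in sgKAT6A cells, compared with 11.6 and 8.94 TPM in EV cells, and SNHG21, host of SCARNA15, had 7.64 and 4.62 TPM in sgKAT6A cells, compared with 8.84 and 9.05 TPM in EV cells. Both were lower without overlap, by fitted differences of -0.32 ± 0.17 for SNHG10 and -0.51 ± 0.25 for SNHG21. Leaving out sgKAT6A replicate 1 gave -0.82 for SNHG21, and leaving out sgKAT6A replicate 2 gave -0.20. The difference of SNHG10 was -0.49 without EV replicate 2 and -0.15 without EV replicate 1. SNHG20, host of SCARNA16, was higher without overlap at 6.01 and 6.01 TPM in sgKAT6A cells, compared with 5.80 and 5.26 TPM in EV cells, a difference of 0.10 ± 0.14, and its groups overlapped after quantile normalization. SNHG14, the imprinted transcript that carries the SNORD115 and SNORD116 clusters and runs antisense to UBE3A, was at 3.03 and 2.73 TPM in sgKAT6A cells, compared with 3.77 and 3.58 TPM in EV cells. It was lower without overlap, with a difference of -0.27 ± 0.17 that exceeded both replicate gaps.

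Of the 28 hosts, 27 had a GENCODE 29 record under their symbol. The gene spans of 12 overlapped a gene on the opposite strand, among them EPB41L4A-AS1 with EPB41L4A, SNHG10 with GLRX5, SNHG12 with TRNAU1AP and SNHG14 with UBE3A. The spans of 5 overlapped a gene on the same strand, among them SNHG4 with MATR3, SNHG3 with RCC1 and SNHG20 with SEC14L1. Whether the library kit or the quantification used strand is not given in the sources used here, so reads of these overlapping genes could not be told apart with certainty. Another 4 hosts that RefSeq now names SNHG were listed under older symbols and lie outside the rule. The largest, LRRC75A-AS1 (now SNHG29), was at 1481 and 1474 TPM in sgKAT6A cells, compared with 1555 and 1501 TPM in EV cells. C6orf48 (now SNHG32) was at 476 and 679 TPM in sgKAT6A cells, compared with 461 and 616 TPM in EV cells.

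Most hosts were lower in the replicate 2 libraries of both groups. Replicate 2 was below replicate 1 for 21 of 24 hosts in sgKAT6A and for 20 of 24 in EV, and 19 hosts were lower in both. Over all 12603 genes tested these counts were 6732 in sgKAT6A, 4955 in EV and 3964 in both. The median gap was -0.30 in sgKAT6A and -0.14 in EV, against a median of -0.030 and 0.065 over all genes tested. sgKAT6A replicate 2 was the lowest library for 16 of 24 hosts (39.9% of all genes) and EV replicate 1 the highest for 11 (26.1% of all genes). Within replicate numbers 1 and 2 the median sgKAT6A difference of the hosts was -0.16 and -0.29. In an ordering looked at after the values were seen, DANCR, GAS5, SNHG1, SNHG8 and SNHG17 fell into the library order of MYC, as did 9.32% of all genes. MYC, a transcription factor that drives ribosome production, was at 107 and 55.7 TPM in sgKAT6A replicates 1 and 2 and at 161 and 93.0 TPM in EV replicates 1 and 2. The 6 hosts whose fitted difference exceeded the larger replicate gap were SNHG6, SNHG12, SNHG14, SNHG19, SNHG26 and EPB41L4A-AS1.

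**Figure D3:**
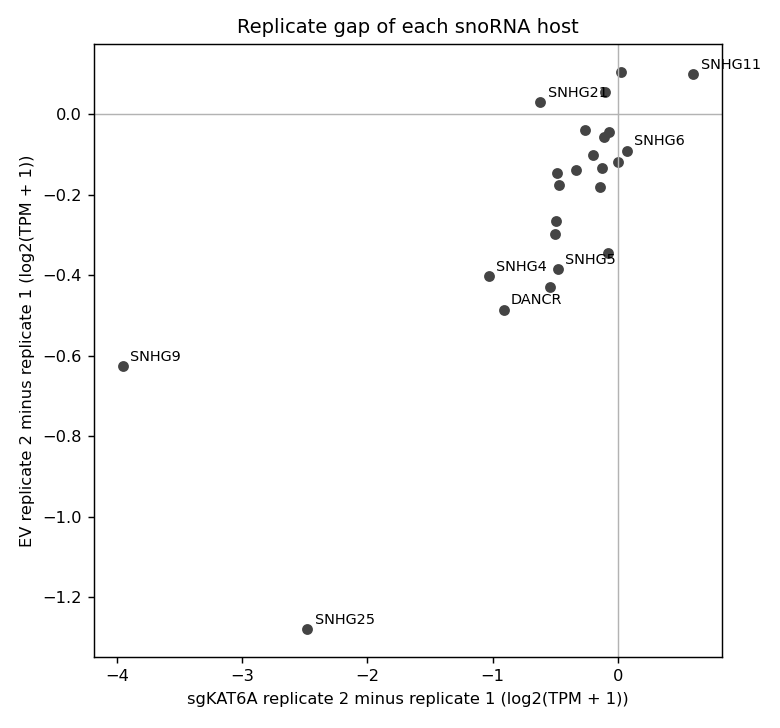
Replicate 2 minus replicate 1 in log2(TPM + 1) for each tested host, in sgKAT6A on the horizontal and in EV on the vertical axis. Most of the 24 points lie left of and below 0, with SNHG9 (-3.95 and -0.63) and SNHG25 (-2.48 and -1.28) farthest out.

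The snoRNAs inside the hosts varied more than the hosts. RefSeq places 57 small RNAs inside hosts other than SNHG14, which are 32 box C/D, 21 box H/ACA and 4 Cajal body RNAs, and 52 of them were tested. None passed the threshold by limma. Without overlap of the groups, 11 were lower and 7 higher in sgKAT6A, beside 23.2% and 14.4% of all genes, and their median difference was 0.033. The median size of the gap between replicates was 1.07 in sgKAT6A and 0.74 in EV for these small RNAs, against 0.40 in sgKAT6A and 0.14 in EV for the hosts. Standard libraries recover RNAs of this length poorly, and 16 of the 57 were listed at 0 in at least 1 library. TPM of a small RNA can also hold fragments of the unspliced host. Of the 57, 23 lie in an intron of every annotated transcript that spans them, among them SNORA13, SNORD12B, SNORD12C and SNORA26. The others overlap an exon of some or all spanning transcripts, among them SNORD12, SNORD50A, SNORA9, SNORD47 and SNORD80. Their TPM can also hold reads of spliced host isoforms, and the share of such reads was not tested.

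SNORA13, SNORD12B and SNORD12C are shown because they stood apart from their hosts or from each other. They were read from GENCODE 29 transcripts on GRCh38, all on the plus strand. SNORA13 lies at chr5:112161485-112161617 in EPB41L4A-AS1, and its capitals mark the ACA box near the end. SNORD12B (chr20:49280319-49280409) and SNORD12C (chr20:49278940-49279028) lie in ZFAS1, and their capitals mark the C box TGATGA and the D box CTGA.
SNORA13: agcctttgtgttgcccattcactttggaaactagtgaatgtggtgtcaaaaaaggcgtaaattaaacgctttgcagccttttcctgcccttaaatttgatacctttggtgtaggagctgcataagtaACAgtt
SNORD12B: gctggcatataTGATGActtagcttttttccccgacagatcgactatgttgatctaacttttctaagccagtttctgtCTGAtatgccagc
SNORD12C: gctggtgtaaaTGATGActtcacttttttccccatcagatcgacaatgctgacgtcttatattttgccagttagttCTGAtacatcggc

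SNORA13 was listed at 0 in both sgKAT6A libraries, against 6.19 and 11.1 TPM in the EV libraries (unadjusted p = 0.000634, adjusted p = 0.615 by limma). Both sgKAT6A values lay at the floor, so that group showed no replicate gap and the p may understate its spread. The host of SNORA13, EPB41L4A-AS1, had a ratio of 0.803 between the group means. SNORD12C was at 38.6 and 53.8 TPM in sgKAT6A cells, compared with 20.2 and 17.3 TPM in EV cells, a difference of 1.24 ± 0.21. SNORD12B, also inside ZFAS1, was on the opposite side at 9.93 and 5.32 TPM in sgKAT6A cells, compared with 26.9 and 15.2 TPM in EV cells, a difference of -1.36 ± 0.41. SNORD12, the other snoRNA of ZFAS1, was higher without overlap at 54.6 and 62.6 TPM in sgKAT6A cells, compared with 20.8 and 43.4 TPM in EV cells. The sequences of SNORD12B and SNORD12C were identical at 69 of 93 aligned positions (74.2%). ZFAS1 itself differed by less than its replicate gap, as given above. SNORD50A, which shares SNHG5 with SNORD50B, was at 29.7 and 126 TPM in sgKAT6A cells, compared with 2.33 and 10.1 TPM in EV cells, whereas SNHG5 overlapped between the groups.

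Host and small RNA had the same sign in some cases. SNORA26 was at 16.8 and 10.7 TPM in sgKAT6A cells, compared with 41.9 and 16.9 TPM in EV cells, lower without overlap by a narrow margin, while its host DANCR had the same sign and overlapped. SNORA9 was at 47.6 and 14.1 TPM in sgKAT6A cells, compared with 61.9 and 71.1 TPM in EV cells, below as its host SNHG15. SNORD47, which GAS5 carries, was lower without overlap at 135 and 70.5 TPM in sgKAT6A cells, compared with 165 and 169 TPM in EV cells. SNORD80, also inside GAS5, was at 46.6 and 30.6 TPM in sgKAT6A cells, compared with 75.8 and 64.1 TPM in EV cells, whereas GAS5 overlapped. The other 8 of the 10 tested snoRNAs of GAS5 overlapped too, and 6 of the 10 had positive differences. SNORD104 was at 242 and 231 TPM in sgKAT6A cells, compared with 190 and 302 TPM in EV cells, in other library order than SNHG25. Of the 26 hosts with small RNAs inside, the summed small RNAs were lower in sgKAT6A without overlap for 6 and higher for 5, beside 23.2% and 14.4% of all genes. For SNHG7 and SNHG18 these sums were 0 in every library. Of the 6 lower, 5 had a host that was lower too. Among these, SNHG4 had sums of 16.8 and 16.3 TPM in sgKAT6A cells, compared with 16.9 and 21.6 TPM in EV cells. The hosts SNHG4 and SNHG15 overlapped under every other scaling. Of the 5 higher (SNHG5, ZFAS1, SNHG10, SNHG11 and SNHG22), 0 had a host that was higher, and SNHG10 itself was lower. Another 3 hosts that were lower (SNHG16, SNHG21 and SNHG26) had small RNA sums that overlapped between the groups. SNHG22 was at 0 in every library, so it could be neither higher nor lower. SNHG14 holds 83 small RNAs, of which 72 were in the table and 49 of these at 0 in every library. The SNORD115 and SNORD116 members are repeated copies, so the assignment of reads among them is uncertain.

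**Figure D4:**
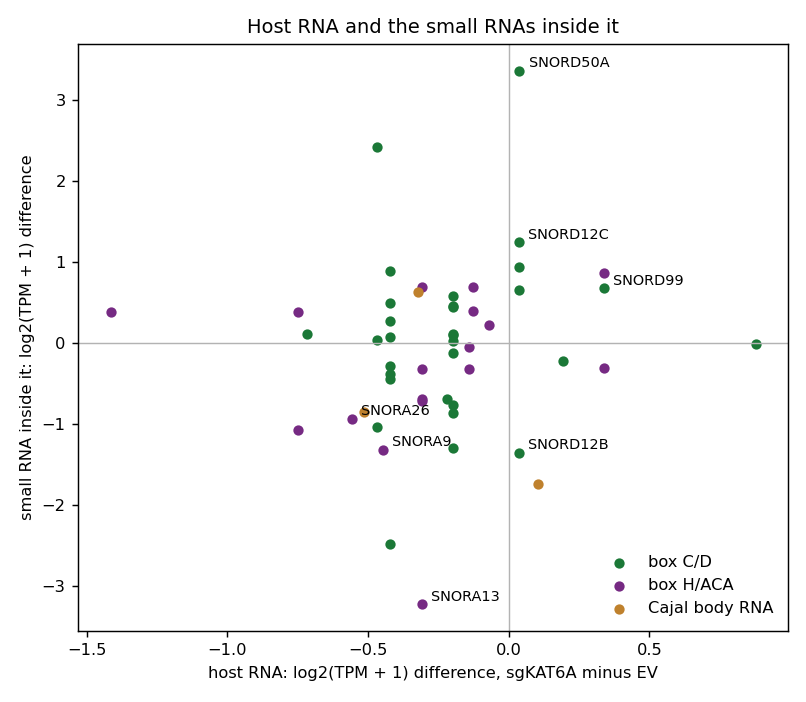
Each of 51 tested small RNAs by its log2(TPM + 1) difference, sgKAT6A minus EV, on the vertical axis and that of its host on the horizontal axis, SNHG14 left out. Green marks box C/D, purple box H/ACA and orange Cajal body RNAs. Small RNAs of 1 host share a vertical line, and SNORA13 (-3.22) and SNORD50A (3.36) mark the ends of a range far wider than that of the hosts.

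Genes that work with the hosts were read from lists. The snoRNP core proteins bind snoRNAs into active particles, and all 8 had negative differences (6624 of 12603 over all genes), with a median of -0.46, 6 lower without overlap and 0 higher. Over all genes these shares were 23.2% and 14.4%. FBL, the methyltransferase of box C/D particles, was at 417 and 330 TPM in sgKAT6A cells, compared with 495 and 445 TPM in EV cells. GAR1, a box H/ACA protein, was at 45.3 and 29.7 TPM in sgKAT6A cells, compared with 71.5 and 49.5 TPM in EV cells. NOP10, another protein of those particles, was at 234 and 214 TPM in sgKAT6A cells, compared with 283 and 264 TPM in EV cells. SNU13, which binds box C/D snoRNAs, was at 87.1 and 63.1 TPM in sgKAT6A cells, compared with 113 and 93.2 TPM in EV cells. The groups did not overlap for any of these 4 genes. None of the 8 passed the threshold by limma, and 0 had an unadjusted p under 0.05. The core proteins were also lower in replicate 2 than in replicate 1 for 8 of 8 in both groups, with a median gap of -0.53 in sgKAT6A and -0.27 in EV.

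The 12 assembly factors of these particles had a median of -0.41, with 7 lower without overlap and 0 higher. RUVBL1, an ATPase of the assembly complex, was at 53.6 and 30.8 TPM in sgKAT6A cells, compared with 73.0 and 62.2 TPM in EV cells. The 28 protein-coding snoRNA hosts, whose introns also release snoRNAs, include the core proteins NOP56 and DKC1. These 28 hosts had a median of -0.21, with 12 lower without overlap and 0 higher. Both lists are read beside 23.2% lower and 14.4% higher over all genes. Among them TCP1, a chaperonin subunit, was at 221 and 171 TPM in sgKAT6A cells, compared with 284 and 249 TPM in EV cells. None in either list passed the threshold by limma. In the assembly list C12orf45 had an unadjusted p under 0.05, at 27.2 and 23.9 TPM in sgKAT6A cells, compared with 37.4 and 32.2 TPM in EV cells.

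Nonsense-mediated decay factors stayed near all genes, with a median of -0.065 over 15 genes, 3 lower and 2 higher without overlap. MAGOHB, a paralogue of an exon junction protein, was at 7.14 and 5.68 TPM in sgKAT6A cells, compared with 9.39 and 9.53 TPM in EV cells. TOP messenger RNAs outside the ribosome had a median of -0.042 over 18 genes, 4 lower and 3 higher without overlap. Of these, EEF1B2, EEF2 and RACK1 are also in the list of protein-coding snoRNA hosts. NPM1, a nucleolar chaperone, was lower at 953 and 796 TPM in sgKAT6A cells, compared with 1231 and 1077 TPM in EV cells, and VIM, an intermediate filament protein, higher at 605 and 839 TPM in sgKAT6A cells, compared with 407 and 560 TPM in EV cells. The 13 genes of the TOP-binding and mTOR list had a median of -0.16, with 4 lower and 2 higher. EIF4E, the cap-binding factor of that list, was at 7.80 and 6.84 TPM in sgKAT6A cells, compared with 10.1 and 9.32 TPM in EV cells. The 9 genes of the MYC list had a median of 0.037, with 0 lower and 1 higher, MXD1 (14.7 and 17.6 TPM in sgKAT6A cells, compared with 9.86 and 14.5 TPM in EV cells). This list joins MYC with partners and with antagonists of the MXD family, so its median is not a measure of MYC activity. MYC itself had a difference of -0.66 ± 0.44, with overlap of the groups. No gene in these 4 lists passed the threshold by limma, and MAGOHB alone had an unadjusted p under 0.05. The counts of these lists read against 23.2% lower and 14.4% higher over all genes. Whether any list differs from the hosts was not tested.

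**Figure D5:**
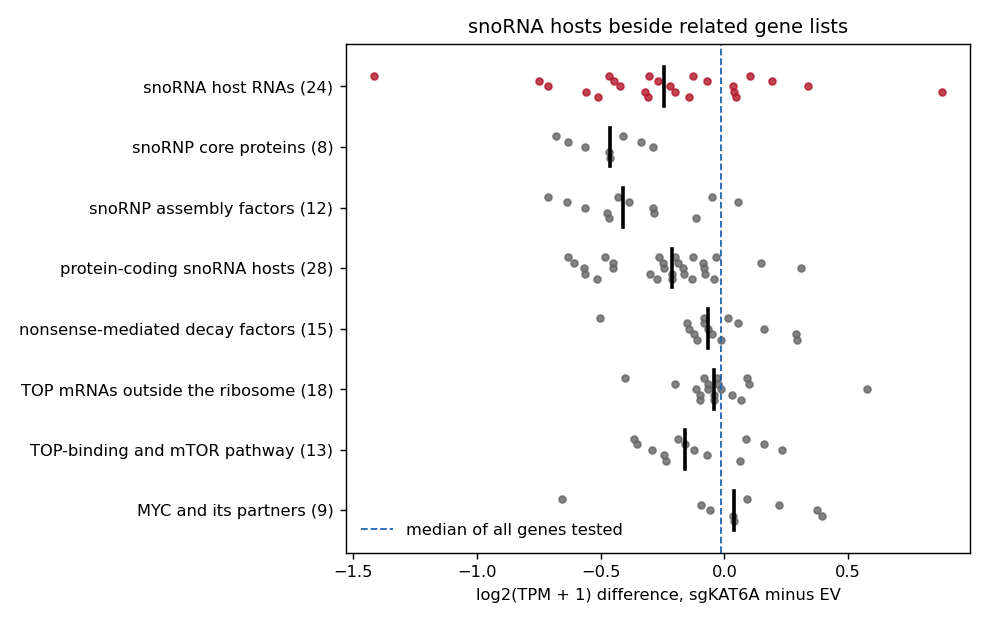
Log2(TPM + 1) difference, sgKAT6A minus EV, of every tested gene in each list (number of genes in brackets), hosts in red, with a black bar at the list median and a dashed line at the median of all genes tested (-0.016). The bars of the snoRNP core proteins (-0.46) and assembly factors (-0.41) lie left of that of the hosts (-0.24). Some genes are in several lists.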

How the data were processed

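RNA of MOLM-13 cells was sequenced after library construction at a company, as the labels' protocols state, and the 4 samples were grouped and numbered by their titles. The authors deposited 1 table of TPM by gene symbol. The submitters' processing notes name Salmon and hg38. The sources used here do not give Salmon's version and transcript annotation, the selection of RNA or the strand setting. TPM is a share of 1000000 per library, so abundant RNAs move all other values, and it keeps no depth.

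Values were used as log2(TPM + 1), which understates changes of low genes. The 12603 genes averaging 1 TPM or more were fitted with limma 3.58.1 in R 4.3.3 (empirical Bayes with trend, 2 residual degrees of freedom and 1.98 prior ones, no block), two-sided, with Benjamini-Hochberg adjustment over all genes and a threshold of 0.05. The code of the fit was run on simulated data with independent noise, where recovery of changes was required only at a spread far below the observed one. That run does not show which changes the fit can detect in these data. Summed TPM was compared by an exact permutation test with scipy 1.17.1. Annotation came from GENCODE 29 and RefSeq, with coordinates on GRCh38. Every member was named, and from each list up to 4 genes without overlap of the groups, by smallest p, of which examples are printed. SNORA13, SNORD12B, SNORD12C, SNORD50A and the other snoRNAs named were chosen after their values were seen. The members, lists and tests were chosen with earlier results of these data known. Alternatives changed the pseudocount, filter, scaling, variance model, block and libraries.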

Additional observations from a re-analysis of the deposited data

How the results depend on the processing

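The count of 0 hosts past the threshold held under all 13 alternatives. Of 311 host differences recomputed, 302 kept their sign and 9 turned, all when 1 library was left out. Changing the filter, the variance model or the block leaves a host's fitted difference as it was. No sign could turn under those settings, so their part of the 302 says nothing about stability. Without sgKAT6A replicate 1 these were SNHG5 (-0.20), SNHG7 (-0.025), SNHG11 (0.17), SNHG25 (-0.36) and ZFAS1 (-0.00072). Without sgKAT6A replicate 2 they were SNHG3 (0.095) and SNHG9 (0.56), and without EV replicate 2 SNHG5 (-0.15) and SNHG7 (-0.044). Over the fits that left out 1 library, these hosts ranged up to 0.28 (SNHG5), 0.14 (SNHG7), 2.12 (SNHG25) and 0.072 (ZFAS1), and down to -0.43 (SNHG11), -0.38 (SNHG3) and -3.39 (SNHG9). DANCR ran from -1.01 to -0.10, SNHG4 from -1.26 to -0.23 and GAS5 from -0.37 to -0.031. The summed host difference of 3.45 TPM reached 246 TPM without sgKAT6A replicate 2 and was -237 TPM without EV replicate 2 and -239 TPM without sgKAT6A replicate 1. With all libraries kept, it was 95.7 TPM under median-of-ratios scaling and 239 TPM with short RNA and ribosomal RNA symbols removed. Hosts without overlap ran from 15 to 21 with 1 library left out, where a group then has 1 library that is assumed to vary like the other group, against 12 with all (lower 9 to 17 against 9, higher 3 to 9 against 3). The median host difference ran from -0.36 to -0.084 over those fits and from -0.27 to -0.20 over the other alternatives. The cause of these changes was not tested. With the replicate number as a replicate block, 15 genes of all tested passed, against 0 without it, and 0 hosts did, with 10 hosts at an unadjusted p under 0.05 beside 19.2% of all genes. Same-numbered libraries deviated together (r = 0.45 across 12603 genes), but the labels do not say that the numbers pair cultures. The deposited TPM gives no depth, which limits what can be said of hosts under 10 TPM and of the small RNAs.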
